A study of Rattus norvegicus with 6 samples.

Results

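Immediate early genes are switched on within minutes of a stimulus, from transcription factors already present in the cell, and many encode transcription factors that act on later genes. The Fos proteins (Fos, Fosb, Fosl1, Fosl2) pair with Jun proteins (Jun, Junb) to form the dimeric factor AP-1. Egr1 and Egr3 are zinc finger transcription factors, Arc is a cytoskeleton-associated protein of active synapses, and Dusp1 is a nuclear phosphatase that switches off MAP kinases. Serum response factor, bound to CArG boxes with its partners Elk1, Elk3 and Elk4, carries growth factor signals to such genes, and CREB, bound to cAMP response elements (CREs), carries calcium and cAMP signals. In carotid body glomus cells, the oxygen-sensing cells of the organ, low oxygen opens calcium channels.

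The 10 genes Fos, Fosb, Fosl1, Fosl2, Jun, Junb, Egr1, Egr3, Arc and Dusp1 were followed, of which 9 were among the 14506 genes measured. Fosb was not analysed here. Where a gene had several probe sets, as Fosl2 with 2, the brightest on average was used. The genes were chosen for a contrast between members that were higher and members that were lower in that comparison. Their group differences are therefore given as a description, without p-values. RNA came from neurospheres, floating clusters of cells dispersed from the carotid body of adult rats and cultured for 10 days. According to the labels, the 3 arrays labelled differentiated came from spheres in neural crest medium lacking mitogens at 3% oxygen. The 3 arrays labelled undifferentiated are given as coming from spheres in normal oxygen in complete medium to which 4 mitogens were added, namely EGF, FGF, ET-1 and IGF-1. Mitogens and oxygen changed together, so their effects cannot be told apart, and the number of animals and of separate cultures behind the arrays is not given in the labels. The series asked which pathways distinguish spheres rich in neuronal cells from spheres rich in undifferentiated cells.

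Values are log2 expression values as deposited, with array medians between 5.05 and 5.13. Arrays of the same group correlated at 0.9857 to 0.9927 (Pearson, all probe sets), and arrays of different groups at 0.959 to 0.9696. Markers went against the labels. All 17 measured glomus cell markers fell in the arrays labelled differentiated by limma's moderated test (adjusted p under 0.05), where the mean level over the list was 7.48 to 7.86, against 10.29 to 10.38 in the arrays labelled undifferentiated. Th, which encodes the tyrosine hydroxylase of dopamine synthesis, fell by 2.86 (adjusted p = 5.09e-07). All 18 measured markers of dividing cells rose (mean level 6.57 to 6.80, against 5.44 to 5.69), as did 12 of 14 mesenchymal and fibroblast markers, with 1 lower (mean level 10.05 to 10.09, against 8.85 to 9.18). Of 10 glial markers 2 rose and 1 fell, of 9 smooth muscle markers 4 rose, of 11 endothelial markers 2 rose and 2 fell, and of 13 macrophage and leukocyte markers 3 rose and 1 fell. Over all genes 14.7% rose and 14.9% fell by the same test. No value in the table was at 0. The groups are therefore called by their labels only, and higher or lower refers to the labelled differentiated arrays. Whether the labels were exchanged was not tested; if they were, every sign below would turn, and medium and oxygen would change places. In RNA from mixed cells, fewer cells of a type and less RNA per cell cannot be told apart, and the part of cell makeup in the differences below was not tested.

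Before the values, the promoter windows of the members at the 2 ends of the contrast, Egr1 and Dusp1, are shown with that of Fosl1 and of 3 genes outside the member list that hold the same or a related motif. Each runs from 250 bases before to 50 bases after the RefSeq start of the gene in the GRCr8 assembly, 5′ to 3′ on the gene's strand. Capitals mark CArG boxes, the full CRE TGACGTCA and the AP-1 site TGACTCA, searched on both strands.
Egr1, chr18:26736828-26737127, plus strand: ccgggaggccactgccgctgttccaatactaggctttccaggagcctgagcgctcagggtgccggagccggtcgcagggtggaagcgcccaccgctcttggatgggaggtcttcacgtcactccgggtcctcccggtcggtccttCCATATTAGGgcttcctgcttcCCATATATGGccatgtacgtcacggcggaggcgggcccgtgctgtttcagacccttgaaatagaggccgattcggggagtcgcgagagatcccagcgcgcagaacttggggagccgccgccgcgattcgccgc
Egr2, chr20:21054392-21054691, minus strand: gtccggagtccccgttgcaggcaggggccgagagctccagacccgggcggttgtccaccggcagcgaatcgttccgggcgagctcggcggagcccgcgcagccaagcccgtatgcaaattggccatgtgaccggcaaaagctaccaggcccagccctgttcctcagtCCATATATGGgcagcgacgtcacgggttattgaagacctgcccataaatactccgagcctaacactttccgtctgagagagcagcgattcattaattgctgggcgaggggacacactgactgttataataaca
Fosl1, chr1:212183635-212183934, plus strand: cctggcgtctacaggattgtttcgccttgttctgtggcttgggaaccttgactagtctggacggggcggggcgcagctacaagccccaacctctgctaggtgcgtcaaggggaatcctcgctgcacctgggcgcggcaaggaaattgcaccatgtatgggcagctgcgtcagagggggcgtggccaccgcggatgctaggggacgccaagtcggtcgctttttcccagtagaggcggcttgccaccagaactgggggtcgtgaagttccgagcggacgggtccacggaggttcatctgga
Dusp1, chr10:17184603-17184902, plus strand: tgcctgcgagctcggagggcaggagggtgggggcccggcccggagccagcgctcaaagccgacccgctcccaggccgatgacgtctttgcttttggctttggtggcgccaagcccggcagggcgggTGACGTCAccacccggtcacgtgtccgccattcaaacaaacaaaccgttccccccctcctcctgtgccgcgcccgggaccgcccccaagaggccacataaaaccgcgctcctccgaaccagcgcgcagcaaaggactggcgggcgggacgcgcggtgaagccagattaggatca
Scg2, chr9:88256817-88257116, minus strand: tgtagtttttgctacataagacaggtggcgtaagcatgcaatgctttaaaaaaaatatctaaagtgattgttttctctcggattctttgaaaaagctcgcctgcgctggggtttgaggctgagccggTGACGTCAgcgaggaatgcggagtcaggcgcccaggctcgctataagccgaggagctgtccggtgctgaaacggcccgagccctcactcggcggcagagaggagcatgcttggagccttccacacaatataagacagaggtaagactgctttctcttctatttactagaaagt
Mmp13, chr8:12782579-12782878, plus strand: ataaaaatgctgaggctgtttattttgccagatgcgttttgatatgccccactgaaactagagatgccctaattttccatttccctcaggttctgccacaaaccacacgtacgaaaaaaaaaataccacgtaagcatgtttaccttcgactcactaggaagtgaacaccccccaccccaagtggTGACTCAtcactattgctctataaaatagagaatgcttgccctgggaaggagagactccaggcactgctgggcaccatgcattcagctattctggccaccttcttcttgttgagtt

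The windows shown are examples picked with the values known, and list genes that went the other way are given below. The RefSeq table held windows for 6 of the 10 members, and none for Fos, Jun, Egr3 and Arc. Among the members, Egr1 alone held a CArG box and Dusp1 alone a full CRE. The Egr1 window held 2 CArG boxes, with first bases at positions -105 and -83 relative to the start, and Egr2, another Egr family member, held 1 at position -83. Dusp1 held a full CRE at position -124, as did Scg2, which encodes secretogranin II of dense-core granules, at position -123. Mmp13, a collagenase gene known as an AP-1 target, held an AP-1 site at position -66. Fosl1, Fosl2, Fosb and Junb held none of these 3 motifs, nor the Egr site GCGTGGGCG. The shorter core TGACG, which every full CRE contains, occurred 2 times in Fosl1 and in Egr1, 1 time in Junb and in Egr2, and 3 times in Dusp1, of which its full CRE gives 1 on each strand. Of all 33469 windows, 1.64% held a CArG box, 1.83% the full CRE, 4.63% the AP-1 site, 0.544% the Egr site and 21.2% the core TGACG. A match in these windows is a match of letters and not a measured binding site.

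On average 7 of the 9 measured members were higher in the arrays labelled differentiated, by widely differing amounts, and Arc and Dusp1 were lower. In 6 of the 9 the groups did not overlap, 4 of them higher and 2 lower, where 42.3% of all genes had groups that did not overlap, 22.5% higher and 19.8% lower. The same 6 passed limma's adjusted p of 0.05, 4 higher and 2 lower, where 29.5% of all genes passed, 14.7% higher and 14.9% lower. The members were chosen on this contrast, so nothing is read from these counts. Nearest to 0 among the higher members was Junb at 0.10, and the lower member nearest to 0 was Arc at -0.94. The median difference was 0.28 over the members and 0.06 over all genes.

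**Figure D1:**
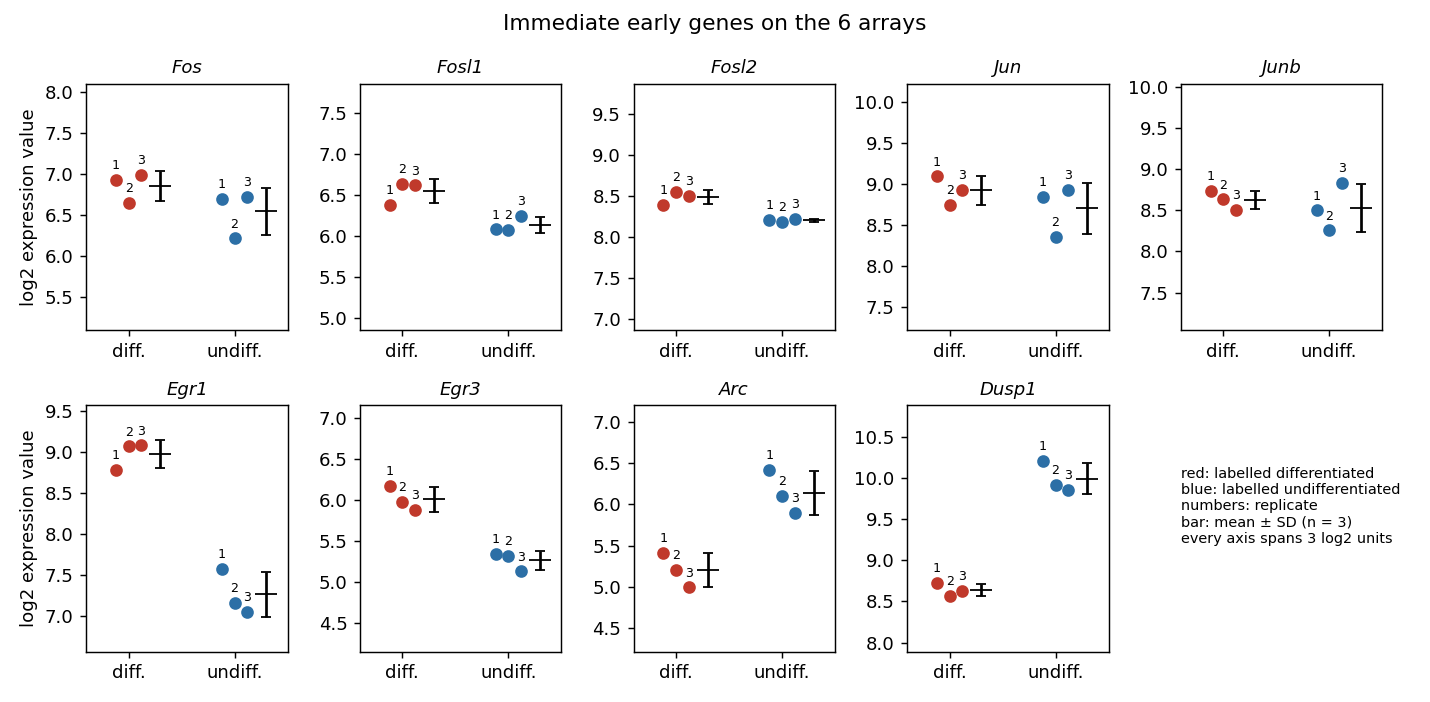
Log2 expression value (vertical axis, 3 log2 units in every panel) of each measured member on the 3 arrays labelled differentiated (red) and the 3 labelled undifferentiated (blue), with replicate numbers, and the mean ± SD of each group as a black bar. The groups are apart for Egr1, Egr3, Fosl1, Fosl2, Arc and Dusp1 and overlap for Fos, Jun and Junb.

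Among the Egr genes, Egr1 read 8.78, 9.07 and 9.08 in the arrays labelled differentiated, against 7.58, 7.16 and 7.05 in those labelled undifferentiated. Every array of the first group lay more than a log2 unit above the highest of the second. The group means were 8.98 ± 0.17 and 7.27 ± 0.28 (SD, n = 3 each), a difference of 1.71 ± 0.14 (SE) or 3.27-fold. Egr1 was the member with the largest difference in either direction. Egr3 read 6.17, 5.97 and 5.88, against 5.34, 5.32 and 5.13. Its groups also stood apart, with a smaller difference of 0.75 ± 0.13 (SE), or 1.68-fold. Egr3 lay above the array median but below the upper quartile on all 6 arrays.

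The Fos family was higher by small amounts. Fosl1, which encodes Fra-1, read 6.38, 6.64 and 6.62 in the arrays labelled differentiated, against 6.08, 6.08 and 6.25 in those labelled undifferentiated. The groups were apart by a narrow margin, and the means differed by 0.41 ± 0.12 (SE), or 1.33-fold. Fosl2, which encodes Fra-2, read 8.39, 8.55 and 8.50, against 8.21, 8.18 and 8.22. Its arrays labelled undifferentiated spanned only 0.036 log2 units, and the difference was 0.28 ± 0.09 (SE). The other Fosl2 probe set gave 8.29, 8.48 and 8.38, against 8.07, 7.99 and 8.11, a difference of 0.32, so both probe sets had groups that did not overlap. Fos itself read 6.93, 6.64 and 6.99, against 6.69, 6.21 and 6.72. The groups overlapped, and the difference of 0.31 ± 0.15 (SE) was smaller than the span of 0.51 among the arrays labelled undifferentiated.

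The Jun genes differed least. Jun, the partner of the Fos proteins in AP-1, read 9.09, 8.74 and 8.93 in the arrays labelled differentiated, against 8.84, 8.35 and 8.93 in those labelled undifferentiated. The groups overlapped, and the difference was 0.22 ± 0.15 (SE). Junb read 8.73, 8.63 and 8.51, against 8.50, 8.26 and 8.83. The highest value of all 6 was in an array labelled undifferentiated, and the difference of 0.10 ± 0.14 (SE) was smaller than its error. Junb was -0.041 without undifferentiated replicate 2, and Jun was 0.039 without undifferentiated replicate 2, against 0.22 with all arrays. Both genes lay above the upper quartile on all 6 arrays.

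The effectors Dusp1 and Arc were lower. Dusp1 read 8.72, 8.57 and 8.63 in the arrays labelled differentiated, against 10.21, 9.92 and 9.86 in those labelled undifferentiated. Every value of the first group was over a log2 unit below the lowest of the second. The means were 8.64 ± 0.08 and 10.00 ± 0.19 (SD, n = 3 each), a difference of -1.36 ± 0.11 (SE) or 2.56-fold. Arc read 5.41, 5.20 and 4.99, against 6.43, 6.11 and 5.90. Its groups were also apart, with a difference of -0.94 ± 0.16 (SE) or 1.92-fold. On differentiated replicate 3 the Arc value was below the array median, and how far it stood over background is not known.

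**Figure D2:**
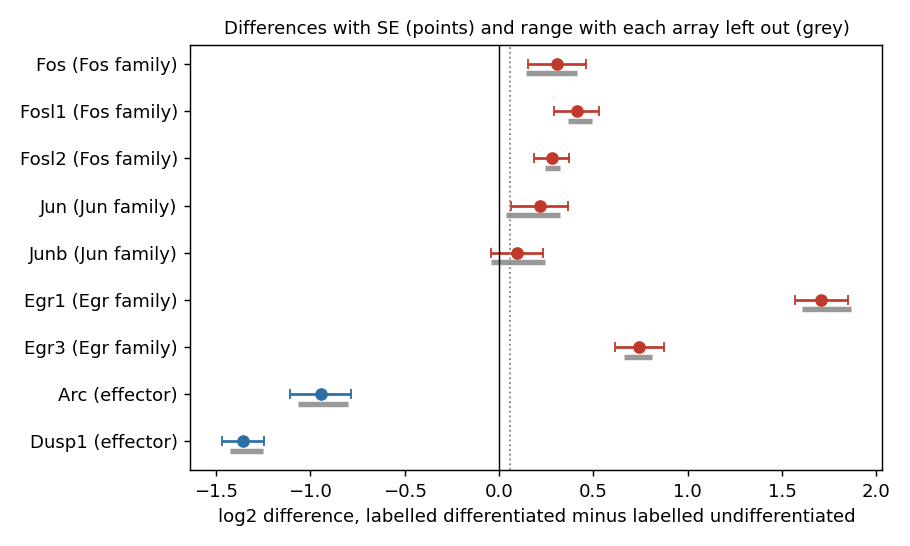
Log2 difference of each member (horizontal axis, labelled differentiated minus labelled undifferentiated) with its SE as points and bars, red for higher and blue for lower, the range of the difference when each array was left out in grey, and the median of all genes, 0.06, as a dotted line. Egr1 at 1.71 and Dusp1 at -1.36 lie at the 2 ends, and only the grey range of Junb crosses 0.

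Within the groups, the members did not vary as a unit. Undifferentiated replicate 2 was the lowest of its group for Fos, Jun and Junb, at -0.33, -0.35 and -0.27 from the group mean, and by a narrower margin for Fosl1 and Fosl2, at -0.06 and -0.021. It was the lowest of its group for 39.4% of all genes, and undifferentiated replicate 3 for 30.1%. Undifferentiated replicate 3 was the lowest for Egr1, Egr3, Arc and Dusp1, and undifferentiated replicate 1 the highest for all 4 of these. Differentiated replicate 2 was also the lowest of its group for Fos at -0.21, for Jun at -0.18 and for Dusp1 at -0.07. Each array's value enters the mean of its group, and so the group difference. Without undifferentiated replicate 2 the difference was 0.14 for Fos, 0.039 for Jun and -0.041 for Junb. With all arrays it was 0.31, 0.22 and 0.10.

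**Figure D3:**
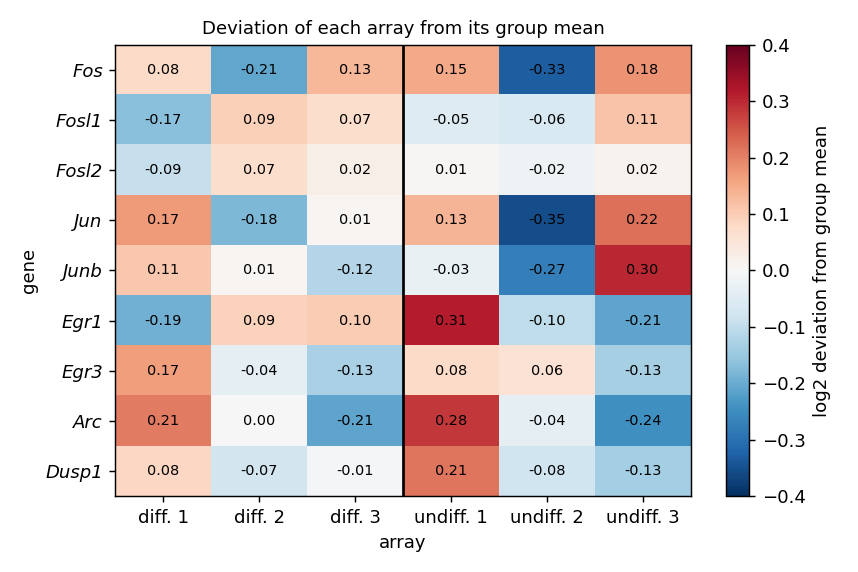
Deviation of each array (horizontal axis) from its group mean for each member (vertical axis), in log2 units, red for above and blue for below the mean, with arrays labelled differentiated on the left. Fos and Jun are low on replicate 2 of both groups, while Egr1, Arc and Dusp1 are highest on undifferentiated replicate 1.

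The replicate 2 pattern of Fos and Jun was shared by Atf3, a stress-induced AP-1 relative, which read 9.35, 8.68 and 9.36 in the arrays labelled differentiated, against 8.91, 8.24 and 9.07 in those labelled undifferentiated. Its replicate 2 deviations were -0.46 and -0.50. The growth arrest gene Gadd45a deviated by -0.37 and -0.59 on the same arrays. Replicate 2 was the lowest array of both groups for 14.6% of all genes, for 2 of the 9 members, for 7 of 24 other immediate early transcription factor genes and for 8 of 33 other immediate early effectors. It was not particular to stress or immediate early genes. The glial markers S100b, Sox10, Erbb3, Cdh19, Ngfr and Cnp were also lowest on replicate 2 of both groups. Gfap, Fabp7, Foxd3 and Mbp were not. Erbb3 read 8.48, 7.53 and 8.30, against 7.76, 7.04 and 7.83. Npas4, another immediate early transcription factor gene, was highest on both arrays, deviating by 0.46 and 0.45. The labels do not say whether arrays with the same number share a culture or a day. The group differences of Atf3, 0.39 (limma adjusted p = 0.236), and of Gadd45a, 0.50 (adjusted p = 0.156), did not pass. The fit behind them ignored replicate numbers. Atf3 passed without differentiated replicate 2 (0.62, adjusted p = 0.0386).

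Genes of the wider pathway, from lists of non-members, were tested in the same fit, in which 14.7% of all genes rose and 14.9% fell. These lists were drawn up with earlier results of these data known, so their counts and medians are a description. Of 24 other immediate early transcription factor genes 11 rose, 6 fell and 7 did not pass, with a median difference of 0.33 against 0.06 over all genes. Myc, a transcription factor of cell growth, averaged 7.26 ± 0.13 in the arrays labelled differentiated and 6.24 ± 0.21 in those labelled undifferentiated (SD, n = 3 each) and rose by 1.02 (limma adjusted p = 0.00012). Hes1, a repressor known as a Notch target, rose by 1.12 (adjusted p = 0.000207). Sik1, a kinase known to be induced through CREB, fell to 7.67, 7.64 and 7.48, against 9.85, 9.87 and 9.88 in the arrays labelled undifferentiated. Sik1 fell by 2.27 ± 0.09 (SE, limma adjusted p = 4.93e-08), with tight values in both groups. Crem, the cAMP response element modulator, whose products include repressors, read 5.96, 6.06 and 5.88, against 7.62, 7.73 and 7.89, and fell by 1.78 (adjusted p = 5.64e-07). Among nuclear receptors of this class, Nr4a1 rose by 0.89 (adjusted p = 0.000228). Egr2 read 5.09, 5.05 and 5.31, against 4.90, 4.24 and 4.48, and rose by 0.61 (adjusted p = 0.0216). Its call was lost without differentiated replicate 3 (adjusted p = 0.0816), undifferentiated replicate 2 (0.0827) and undifferentiated replicate 3 (0.0716). The list had 11 of its genes past the threshold, in place of 17, without differentiated replicate 3 and likewise without undifferentiated replicate 3.

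Of 33 other immediate early effector genes 17 rose, 7 fell and 9 did not pass, with a median of 0.47. Ccn1, a secreted matrix protein, rose by 1.70 (limma adjusted p = 2.84e-06), and Errfi1, a feedback inhibitor of the EGF receptor, rose by 1.36 (adjusted p = 2.85e-06). Nptx2, a secreted pentraxin of synapses, fell by 3.76 (adjusted p = 4.15e-07), and Scg2 fell by 2.38 (adjusted p = 2.85e-07). Vgf, a neuropeptide precursor, read 7.62, 8.61 and 7.88 in the arrays labelled differentiated, against 11.27, 11.32 and 11.25 in those labelled undifferentiated, and fell by 3.24 (adjusted p = 5.48e-07). Scg2 also stands in the glomus cell list, in which 17 of 17 genes fell. Neuronal activity genes did not all follow Arc: Homer1, a synaptic scaffold gene, rose by 1.01 (adjusted p = 6.69e-05) and Bdnf, a neurotrophin, by 0.59 (adjusted p = 0.00283).

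The MAP kinase phosphatases other than Dusp1 included 6 that rose and 1 that fell, with 4 of the 11 not passing and a median of 0.77. Dusp6, a cytoplasmic ERK phosphatase, read 9.05, 9.29 and 8.72 in the arrays labelled differentiated, against 7.49, 7.33 and 7.01 in those labelled undifferentiated, and rose by 1.75 (limma adjusted p = 9.7e-06). Dusp14 rose by 1.76 (adjusted p = 3.95e-05). Dusp8, known for its action on stress-activated kinases, fell by 0.75 (adjusted p = 0.000622).

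Of 29 kinases and factors upstream of the immediate early genes, 4 rose, 5 fell and 20 did not pass, with a median of -0.05. All 3 ternary complex factors, the partners of serum response factor, were among those that rose. Elk3 rose by 0.53 (limma adjusted p = 0.00527), Elk1 by 0.53 (adjusted p = 0.0103) and Elk4 by 0.50 (adjusted p = 0.00788). Srf itself differed by 0.33 (adjusted p = 0.0775), and passed with quantile normalization (adjusted p = 0.0391) and without undifferentiated replicate 1 (0.46, adjusted p = 0.0128). Camk2d, a calcium-dependent kinase, rose by 0.99 (adjusted p = 0.000189). Mapk14, the p38 kinase, fell by 1.04 (adjusted p = 7.78e-06), and Braf, a kinase of the ERK cascade, fell by 0.84 (adjusted p = 8.98e-05).

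Of 23 AP-1 partners and related bZIP factors 5 rose, 4 fell and 14 did not pass, with a median of -0.06. Jdp2, a repressor that dimerises with Jun, averaged 7.48 ± 0.31 in the arrays labelled differentiated and 6.12 ± 0.12 in those labelled undifferentiated (SD, n = 3 each) and rose by 1.35 (limma adjusted p = 4.79e-05). Nfil3, a bZIP repressor, rose by 0.88 (adjusted p = 0.000388). Creb3l2, a bZIP factor of the endoplasmic reticulum, fell by 0.81 (adjusted p = 6.58e-05), as did Crem, given above. Jund, the remaining Jun family gene, differed by -0.12 ± 0.09 (SE, adjusted p = 0.411).

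Genes known as AP-1 or Egr1 targets mostly rose. Of 28 measured, 19 rose, 1 fell and 8 did not pass, with a median of 0.79. Thbs1, which encodes a secreted thrombospondin, rose by 3.66 (limma adjusted p = 1.97e-08). Mmp13 read 10.48, 9.82 and 10.07 in the arrays labelled differentiated, against 7.55, 7.43 and 7.53 in those labelled undifferentiated, and rose by 2.62 (adjusted p = 2.63e-07). The cyclin gene Ccnd1 rose by 1.53 (adjusted p = 0.000275). Il6, an inflammatory cytokine, was the gene that fell, by 0.69 (adjusted p = 0.00227). Nab2, a corepressor that Egr1 induces and that in turn restrains it, differed by -0.24 ± 0.11 (SE, adjusted p = 0.16). Mesenchymal and dividing cell markers rose in the same arrays, by the values given above, and their part in this list was not tested.

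Heat shock genes, which respond to acute stress, were divided. Of 13 measured 3 rose, 4 fell and 6 did not pass, with a median of -0.15. Hspa1a and Hspa1b were on the list but were not analysed. Among those that did not pass were Dnajb1 at 0.03 (limma adjusted p = 0.877) and Hsph1 at 0.02 (adjusted p = 0.888). Hspa4l, a chaperone of the heat shock family, fell by 2.64 (limma adjusted p = 4.93e-08), and the co-chaperone Bag3 fell by 0.80 (adjusted p = 6.32e-05). The mitochondrial chaperonins Hspd1 and Hspe1 rose by 0.53 (adjusted p = 0.00115) and 0.56 (adjusted p = 0.00145). Only 4 genes of this list passed without undifferentiated replicate 2 and likewise without undifferentiated replicate 3.

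**Figure D4:**
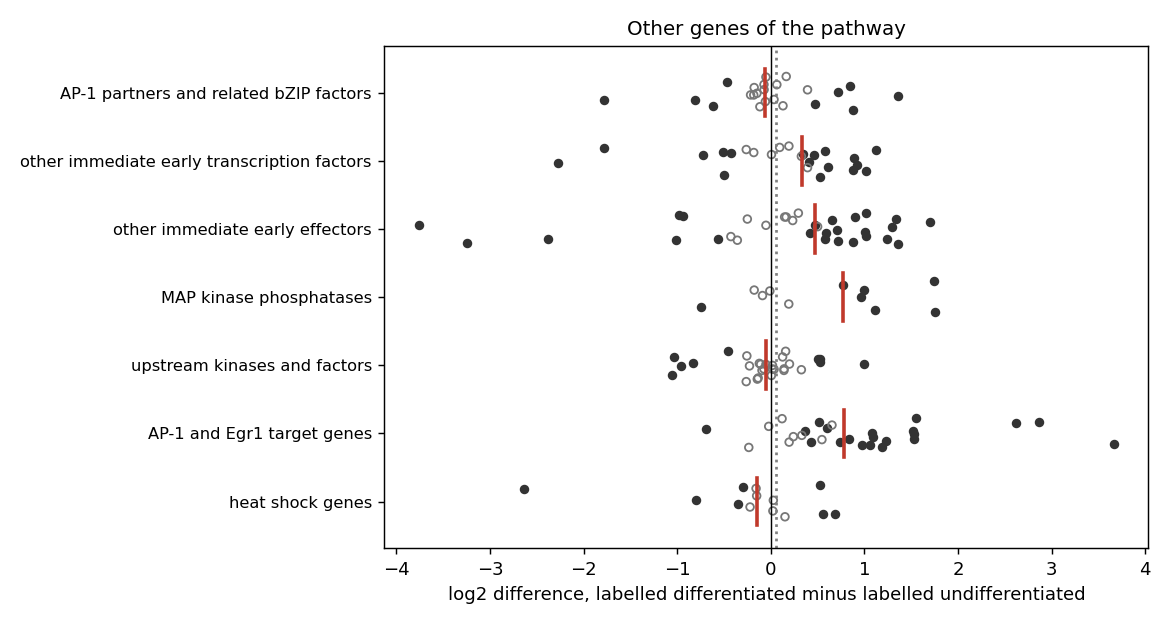
Log2 difference (horizontal axis, labelled differentiated minus labelled undifferentiated) of every measured gene of the 7 lists, filled where limma's adjusted p was under 0.05 and open otherwise, with the median of each list in red and that of all genes as a dotted line. The medians of the target, phosphatase and immediate early lists lie between 0.33 and 0.79, and those of the bZIP, upstream and heat shock lists between -0.15 and -0.05.

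The promoter motifs of the list genes were set beside their differences. This grouping was made after the values were seen and was not tested. Among 131 non-member genes of the 7 lists with a window, 51 rose and 25 fell. A CArG box was held by 5 of them, of which 4 rose and 0 fell: Dusp5 (0.77), Egr2 (0.61), Klf6 (0.46) and Zfp36 (0.42), with Srf at 0.33. Klf6 lost its call without differentiated replicate 1 (limma adjusted p = 0.0809), undifferentiated replicate 2 (0.0856) and undifferentiated replicate 3 (0.0545). The full CRE was held by 11, of which 1 rose and 6 fell, with a median of -0.69. Besides Vgf, Scg2, Braf and Il6, the kinase genes Mapk10 and Plk2 fell, by 1.05 (adjusted p = 0.000152) and 1.01 (adjusted p = 0.000383), while Ier2 rose by 0.53 (adjusted p = 0.0134). The shorter core TGACG was held by 65 list genes, of which 21 rose and 16 fell, with a median of 0.026 against 0.14 over the 131 genes. The AP-1 site was held by 9 list genes, of which 4 rose and 1, Bag3, fell. The 4 were Mmp13, Mmp3 (1.55), Gja1 (1.23) and Plaur (0.73), and Mmp10 differed by 0.65 (adjusted p = 0.167), passing without differentiated replicate 2 (0.98, adjusted p = 0.023). The Egr site was held by 4 list genes, of which 1, Cd44 (0.43), rose and 0 fell, with a median of -0.07.

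**Figure D5:**
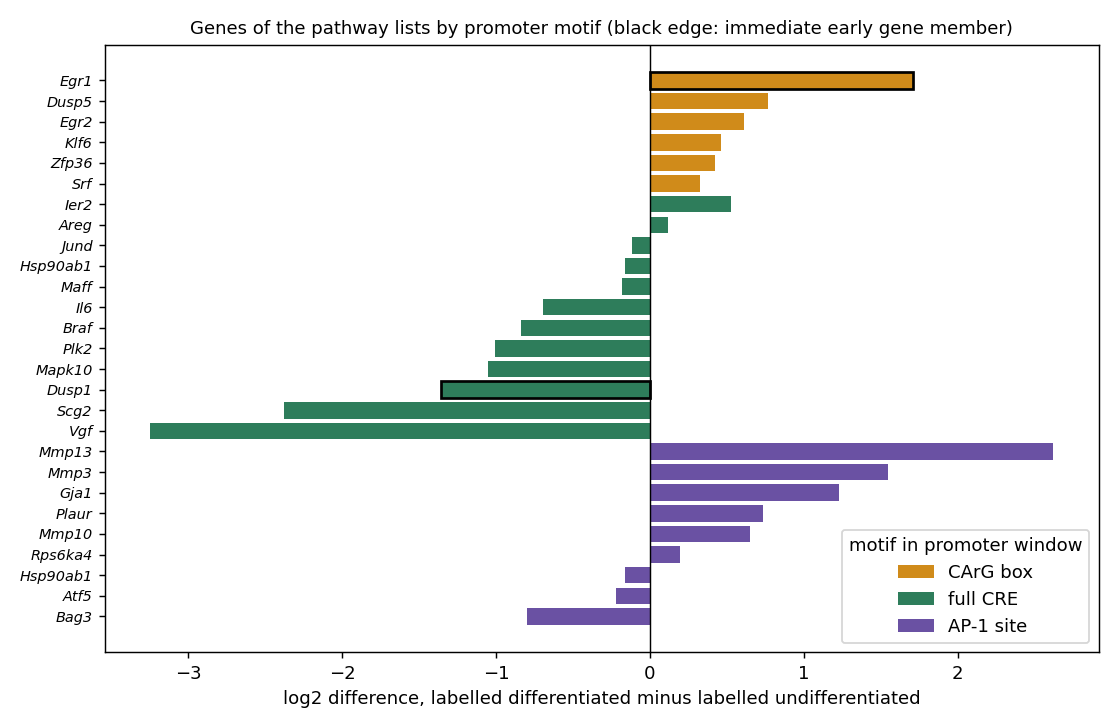
Log2 difference (horizontal axis, labelled differentiated minus labelled undifferentiated) of the member and list genes whose promoter window held a CArG box (orange), a full CRE (green) or an AP-1 site (purple), with the members Egr1 and Dusp1, which were chosen on this contrast, outlined in black. Without them, all 5 bars with a CArG box point to higher values, and 9 of the 11 with a full CRE to lower ones. Of the 9 with an AP-1 site, 6 point to higher values and 3 to lower ones. Srf, Maff, Hsp90ab1, Jund, Areg, Atf5, Rps6ka4 and Mmp10 did not pass. Among all 131 non-member list genes with a window, 79 were higher and 52 lower. The grouping was made after the values were seen.

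Over all 11968 measured genes with a window, 14.3% rose and 14.9% fell. Of the 153 that held a CArG box 17.6% rose and 11.8% fell, with a median difference of 0.12 against 0.06 for all with a window. Of the 294 with the full CRE 14.6% rose and 21.1% fell, with a median of 0.01. Of the 458 with the AP-1 site 12.2% rose and 14.6% fell, with a median of 0.06. These shares lay nearer to those of all genes than the shares among the list genes did. Of 12 glomus cell markers with a window, 3 held the full CRE, namely Th, Slc18a2 and Scg2, and all 17 glomus markers fell, so the part of glomus cell content in the lower CRE genes was not tested.

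Profiles over the 6 arrays, centred on each gene's mean, were compared by root mean square distance in log2 units. The profile nearest to Egr1 was that of Hif1a, the hypoxia-inducible factor gene, at a distance of 0.12. Hif1a read 10.40, 10.64 and 10.46 in the arrays labelled differentiated, against 8.91, 8.80 and 8.62 in those labelled undifferentiated. Nearest to Dusp1 was Igf1r, the receptor for the mitogen IGF-1, at 0.07, which read 8.58, 8.44 and 8.52, against 10.06, 9.96 and 9.71. Nearest to Egr3 was Sat1, of polyamine breakdown, at 0.04, and nearest to Arc was Tmod2, a neuronal tropomodulin, at 0.09. The remaining nearest genes were Wdr3 for Fosl1 at 0.03, Or8g2 for Fosl2 at 0.03, Pign for Fos at 0.05, Ifih1 for Jun at 0.05 and Prmt7 for Junb at 0.03. Or8g2, an olfactory receptor gene, read at most 1.96 on any array, below the lower quartiles. The likeness is a description over 6 arrays that fall into 2 groups.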

How the data were processed

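Total RNA (100 ng per sample, per the labels' protocols) was converted to biotinylated cRNA and hybridised to 6 Affymetrix arrays. The authors deposited 1 table of log2 values for 29214 probe sets; the base was inferred from their range. The sources used here do not say how the authors corrected background, normalized and summarized probes; the values were used as deposited. The number of arrays limits the precision, and p-values reflect the spread among these 6 arrays alone, which may be technical. Names came from the platform annotation, which listed 15633 probe sets, 15310 of them with 1 gene symbol; 13581 were not listed. Gene IDs matched to the GRCr8 gene table changed 0 symbols. The brightest probe set stood for each of 14506 genes, 527 of them with several.

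All arrays entered 1 fit in limma 3.58.1 (R 4.3.3; lmFit, eBayes with trend), labelled differentiated minus labelled undifferentiated, two-sided, with p-values adjusted over all genes (Benjamini-Hochberg) and a threshold of 0.05; the script was tested on simulated data. Members and lists were chosen with earlier results of these data known. The lists share genes (Atf3, Maff, Nfil3 and Crem; Srf; Creb1). Named were all members, the 2 genes of smallest p in the direction of each list's median and the 2 that passed in the other, and the nearest profile to each member; other list genes were named after their values were seen. Promoter sequences are RefSeq's (GRCr8), whose build need not be that of the array's design. Alternatives were quantile normalization, median centring, a replicate block, a filter on dim genes, other probe set rules, each array left out, eBayes without the trend or robust, and a threshold of 0.01. Python 3.11.15 with matplotlib 3.10.9 drew the figures.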

Additional observations from a re-analysis of the deposited data

How the results depend on the processing

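The 9 member differences kept their direction under the replicate block, quantile normalization, median centring, both other probe set rules and with each array left out, except Junb, which was -0.041 without undifferentiated replicate 2. With each array left out they ran from 0.14 to 0.41 for Fos, 0.36 to 0.49 for Fosl1, 0.24 to 0.33 for Fosl2, 0.039 to 0.33 for Jun, -0.041 to 0.25 for Junb, 1.60 to 1.87 for Egr1, 0.66 to 0.81 for Egr3, -1.07 to -0.80 for Arc and -1.42 to -1.25 for Dusp1. Genes past the threshold were 4286 in all and 3545 to 4030 with an array left out. Of the lists, other immediate early transcription factors had 17 and 11 to 16 with an array left out (9 at an adjusted p under 0.01), and heat shock genes 7 and 4 to 6 (4 at 0.01); counts of the other 5 lists stayed within 1.5 times under the alternatives run. The difference of Prmt7, the nearest profile to Junb, was -0.067 without undifferentiated replicate 2 and at most 0.208 with an array left out. The call of Wdr3 was lost without undifferentiated replicate 1 (limma adjusted p = 0.0533). Same-numbered arrays had correlations of their deviations of 0.115, 0.124 and -0.004, and differently numbered arrays had correlations from -0.15 to 0.062. The labels state no pairing, and the numbers were not taken as one. With the replicate block 4430 genes passed, and Atf3, Gadd45a and Pign gained a call (limma adjusted p = 0.01, 0.0102 and 0.0255). Signal over background is not known for these values, which limits the sizes given for dim genes such as Arc.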
